A study of Homo sapiens with 4 samples.

Results

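The genes described here are 10 transcription factor genes of the immediate-early response, namely the AP-1 genes FOS, FOSB, FOSL1, FOSL2, JUN, JUNB and JUND, the related gene ATF3, and EGR1 and MYC. They were found by their names on the arrays and not by their values, and make up 10 of the 25683 genes that had a value on all 4 arrays. All 4 arrays hold RNA of human proximal tubular cells (HPTCs) kept without serum and supplements for 24 h before a further 24 h with the inflammatory cytokine IL-1β at 10 ng/mL and the SGLT2 inhibitor empagliflozin (Empa) at 500 nM. HK-2, a cell line immortalised with papillomavirus E6 and E7 genes, gave 2 arrays. RPTEC/TERT1, which owes its immortality to the telomerase gene TERT, gave the other 2. Replicates 1 and 2 of each line are called r1 and r2. According to the methods these are biological duplicates of 1 line each. The control and IL-1β arms were not analysed here, so no value below is a response to IL-1β or to Empa, and the labelled cell line is the only contrast.

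AP-1 is a dimer of leucine zipper proteins. JUN proteins pair with each other or with FOS proteins, and the dimer binds the sequence TGACTCA. ATF3 belongs to the same protein class and prefers the related site TGACGTCA, EGR1 is a zinc finger factor, and MYC is a helix-loop-helix factor that binds CACGTG together with MAX. In most cells FOS, FOSB, JUNB, EGR1 and ATF3 are transcribed within minutes of a growth factor, cytokine or stress signal carried by MAP kinases, and their RNA is short-lived. FOSL1, FOSL2 and JUND RNA usually lasts longer. In the tubule these genes are known for their induction after injury, and MYC drives growth and ribosome production.

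The arrays do not fall by their labels. HK-2 r1 resembled RPTEC/TERT1 r2 (Pearson r = 0.983 across the 16468 genes tested), and HK-2 r2 resembled RPTEC/TERT1 r1 (r = 0.975), while the 2 arrays of 1 label had r = 0.847 in HK-2 and 0.833 in RPTEC/TERT1. Genes are not independent replicates, so these values describe the arrays. Whether labels were exchanged between arrays was not tested, so each difference between HK-2 and RPTEC/TERT1 given here, its direction and the count of calls hold for the labels as deposited and may not be those of the cell lines. The arrays are named by their labels only, each gene is given on every array, and a difference between the labels is set beside the difference within replicate 1 and within replicate 2. Between 59.2% and 64.9% of the spots of an array were well above background. Of 12 proximal tubule markers, 8 were well above background on HK-2 r1, 7 on HK-2 r2, 5 on RPTEC/TERT1 r1 and 8 on RPTEC/TERT1 r2, and the defining markers CUBN, SLC22A6 and HNF4A were not on any array. PAX8 and GGT1 were well above background on all 4.

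Levels are given as log2 of the processed spot signal over the array's 75th percentile, so a level of 0 is a signal at that percentile, and signals under 0.0242 of it were set to a floor at a level of -5.37. Brightness also depends on the probe, so levels are compared between arrays and not between genes. All 10 genes passed the filter for testing (well above background on at least 2 arrays), 9 of them on all 4 arrays, and no spot of theirs was saturated or marked as an outlier. In bulk RNA, fewer cells that express a gene and less of its RNA per cell cannot be told apart.

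Across the 10 genes, FOSL1 and MYC stood out by the size of their differences between arrays and FOS came next, while the other 7 genes spanned between 0.42 and 1.28 log2 units over the 4 arrays. FOSL1 and MYC were highest on HK-2 r2 and RPTEC/TERT1 r1, 1 array of each label. No gene of the group was called between the labelled cell lines. The median span was 0.91 in the group and 1.05 over all genes tested.

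**Figure D1:**
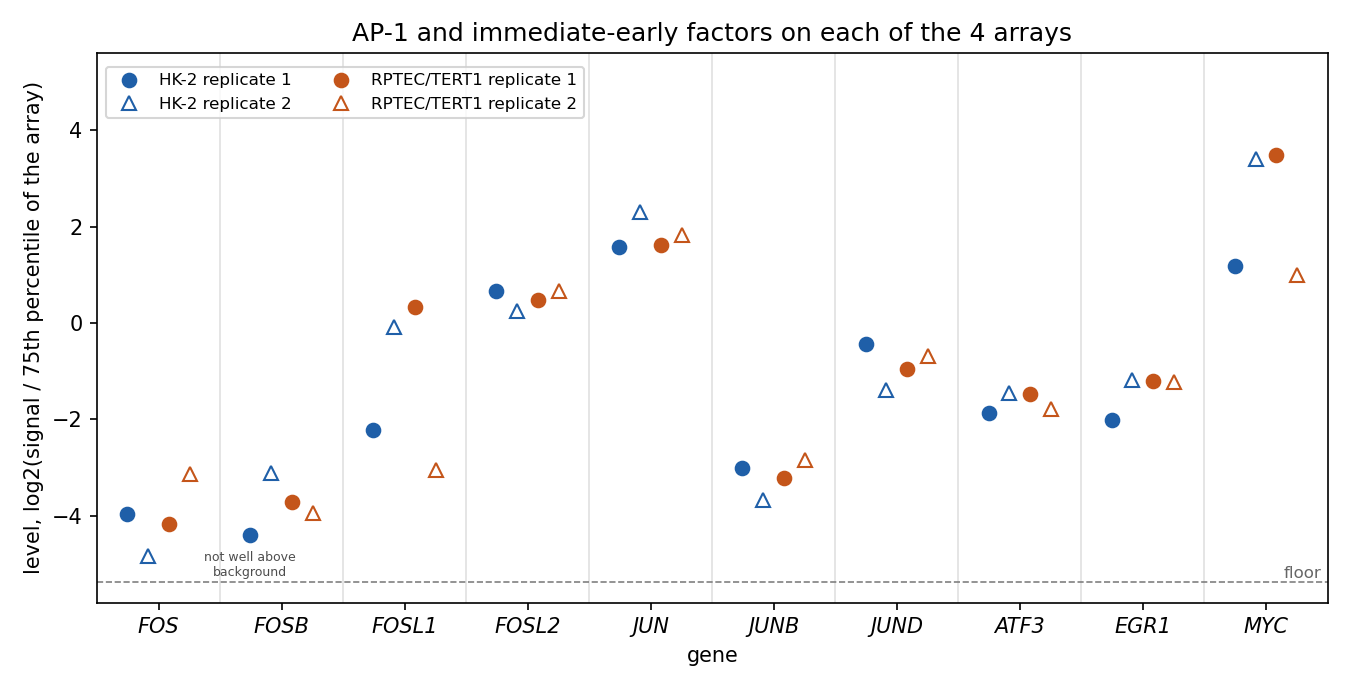
Level of each gene on each array (log2 of the processed signal over the array's 75th percentile), with HK-2 in blue, RPTEC/TERT1 in orange, filled circles for replicate 1 and open triangles for replicate 2. Each point is 1 array, heights compare arrays and not genes, and the dashed line is the floor at -5.37. FOSL1 spans 3.38 and MYC 2.50 log2 units with 1 array of each label at the top, and FOSB on HK-2 r1 was not well above background.

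Among the FOS genes, FOSL1 (Fra-1, a FOS protein without a strong activation domain) varied most. Its probe gave a processed signal of 84.0 on HK-2 r1, 701.7 on HK-2 r2, 611 on RPTEC/TERT1 r1 and 51.6 on RPTEC/TERT1 r2. In levels these are -2.23, -0.09, 0.32 and -3.05. Each label thus held 1 high and 1 low array, and the labels overlapped. Within replicate 1, HK-2 was 5.86-fold lower than RPTEC/TERT1 (a difference of -2.55 log2 units), and within replicate 2 it was 7.80-fold higher (2.96 log2 units). The highest array exceeded the lowest 10.4-fold, a span that was larger in 985 of the 16468 genes tested. The mean level was -1.16 ± 1.51 (SD, n = 2) in HK-2 and -1.36 ± 2.39 (SD, n = 2) in RPTEC/TERT1. The difference of 0.21 had a standard error of 1.43 and a 95% interval of -3.67 to 4.08, with an adjusted p of 1 by limma. The size of the difference within replicate 1 varied between processings. It was -1.09 in the deposited log2 values and -0.55 with normexp correction, or -1.91 with normexp once the 8 spots of bright local background on HK-2 r1 were removed.

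The FOSL1 value rests on a single 60-base probe, A_23_P161624, which lies on the minus strand at chr11:65660098-65660157 (GRCh37, the build named in the file headers). Its first 30 bases, written 5′ to 3′ in the sense of the transcript and covering chr11:65660128-65660157, are shown because no other probe on the array reports this gene.
FOSL1 probe: ctggcctctctagcacaatttgcactaaat

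FOS, the partner that forms the classical dimer with JUN (probe at chr14:75748214-75748273, GRCh37), was dim on every array, with signals of 25.1 and 26.3 on the HK-2 arrays and 26.9 and 48.9 on the RPTEC/TERT1 arrays. Its levels were -3.97, -4.83, -4.18 and -3.13 in the same order. RPTEC/TERT1 r2 was highest and HK-2 r2 lowest, so that within replicate 2 HK-2 was 3.25-fold lower, against a difference of 0.21 log2 units the other way within replicate 1. Part of the gap in replicate 2 comes from the scaling, with 75th percentiles of 747.5 on HK-2 r2 and 428.6 on RPTEC/TERT1 r2. FOS was well above background on every array, and the 95th percentile of the 153 negative controls was 5.1, 9.1, 3.9 and 2.3 in the same order. The single brightest negative control spot gave 171.2, 50.7, 49.3 and 12.1, above FOS on all arrays but RPTEC/TERT1 r2. On HK-2 r1 that spot was also brighter than the probes of FOSL1, JUNB and EGR1, among others. The labels overlapped, and the difference of -0.75 had a 95% interval of -2.44 to 0.94 (adjusted p = 1, limma). This difference changed sign with normexp correction (0.65) and in the deposited log2 values (0.26).

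FOSB, a close relative of FOS (chr19:45978205-45978264), gave signals of 18.7, 86.6, 37.3 and 27.7 on HK-2 r1 and r2 and RPTEC/TERT1 r1 and r2. The first of these was not well above background, so its level of -4.39 is an upper limit. The other levels were -3.11, -3.71 and -3.95, and HK-2 r2 was highest. FOSL2 (Fra-2, chr2:28637175-28637234) varied least among the FOS genes, at levels of 0.67, 0.25, 0.48 and 0.67, a span of 1.34-fold that was smaller in 11.4% of the genes tested.

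Among the 8 genes whose promoter windows were searched, FOSL2 is the only one whose window holds the AP-1 site itself. RefSeq promoter windows of GRCh38.p14, each 300 bases long with 250 bases before the start, were searched for 8 of the 10 genes. FOSL1 had no window, and MYC was not searched because windows on its chromosome were left out. The search covered 9 windows in all because ATF3 has 2. The site TGACTCA, searched on both strands, was present in 1 of these 9 windows and in 4.95% of the 35116 windows of the table. It lies at bases 5 to 11 after the start of FOSL2, in capitals in the following plus-strand stretch at chr2:28392850-28392879 (GRCh38.p14).
FOSL2: gtgccattgtagTGACTCAtctcgggcaga

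The JUN genes differed less between arrays than FOSL1 or FOS. JUN, the main activating partner (minus strand, chr1:59246511-59246570, GRCh37), gave signals of 1174 and 3665 on the HK-2 arrays and 1497 and 1509 on the RPTEC/TERT1 arrays, and levels of 1.58, 2.29, 1.62 and 1.82. HK-2 r2 was highest, and the other 3 arrays lay within 0.24 log2 units of each other. JUNB, which can replace JUN as a weaker partner (chr19:12902998-12903057), had levels of -3.00, -3.68, -3.23 and -2.85. JUND, a constitutively expressed JUN protein that restrains growth in many cells (minus strand, chr19:18391371-18391430), had levels of -0.43, -1.40, -0.96 and -0.69. The levels of JUNB and JUND were both lowest on HK-2 r2, where that of JUN was highest. Before scaling, HK-2 r2 was lowest in neither JUNB nor JUND. In the same order of arrays, the JUNB signals were 48.99, 58.42, 52.21 and 59.65, and the JUND signals 292.5, 283.7, 251.7 and 265. The 75th percentiles that divide them were 393.3, 747.5, 488.3 and 428.6. The 95% intervals of the difference were -1.11 to 1.54 for JUN, -1.65 to 1.03 for JUNB and -1.55 to 1.38 for JUND, so that differences of more than 2-fold in either direction lie inside each of them.

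The JUND window is the only one of the 9 that holds the site TGACGTCA, the cyclic AMP response element that ATF and JUN dimers bind, at bases -200 to -193 before the start. This 8-base palindrome occurs in 1.85% of all windows. The stretch below runs along the minus strand at chr19:18281769-18281868 (GRCh38.p14), with the site in capitals.
JUND: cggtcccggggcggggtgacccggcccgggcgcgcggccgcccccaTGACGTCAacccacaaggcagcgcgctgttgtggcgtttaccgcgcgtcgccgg

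ATF3, a stress-induced factor that often represses its targets, was read by 4 probes that did not follow one pattern. Probe A_23_P34915 (chr1:212793856-212793915, GRCh37) had levels of 0.98 and 1.99 on HK-2 r1 and r2 and 1.77 and 1.48 on RPTEC/TERT1 r1 and r2. Probe A_24_P33895, which lies 959 bases before it at chr1:212792837-212792896, had levels of -3.93, -3.01, -2.67 and -4.20. These 2 probes were higher on HK-2 r2 and RPTEC/TERT1 r1 than on the other arrays, the arrays on which FOSL1 and MYC were high. Probe A_33_P3214096 (chr1:212792519-212792578) had levels of -2.07, -2.43, -2.43 and -2.33, and probe A_33_P3214105 (chr1:212788502-212788561) had levels of -2.48, -2.36, -2.57 and -2.09. The last 2 varied by at most 0.47 log2 units and were highest on HK-2 r1 and RPTEC/TERT1 r2, respectively. All 4 were well above background on every array. Their mean, used as the level of the gene, was -1.88, -1.45, -1.47 and -1.79, a span of 0.42 beside spans of 1.01 and 1.53 for the first pair of probes. The 30 bases that open each probe (5′ to 3′, sense strand) are shown because the probes read different stretches of the gene.
A_33_P3214105: tttgccatccagaacaagcacctctgccac
A_33_P3214096: aagaagagggtctgcattttcctaaaccca
A_24_P33895: tccagaagatgagagaaacctctttatcca
A_23_P34915: gatgtcaatagcattgtttttgtcatgtag

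**Figure D2:**
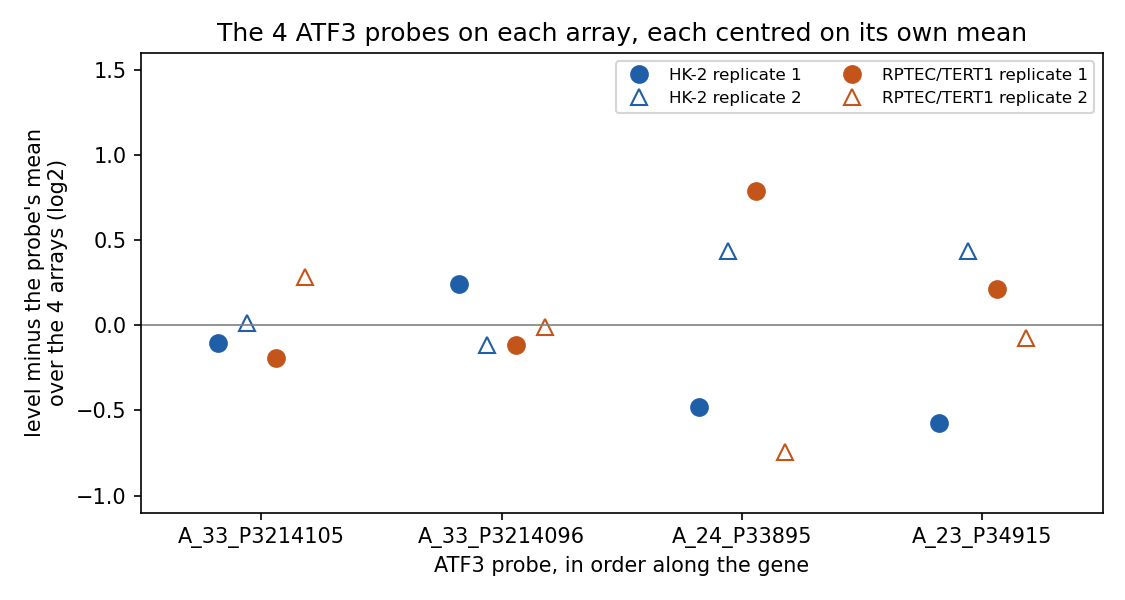
Level of each ATF3 probe on each array minus that probe's own mean over the 4 arrays (log2), with the probes in order along the gene. Each point is 1 array. The pair on the right spans 1.53 and 1.01 log2 units with HK-2 r2 and RPTEC/TERT1 r1 above their mean, and the pair on the left spans 0.47 and 0.36.

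EGR1, a zinc finger factor induced through serum response factor (SRF), is read by a probe at chr5:137804891-137804950 (GRCh37), which had signals of 96.8, 331, 213 and 183 on HK-2 r1 and r2 and RPTEC/TERT1 r1 and r2. The levels were -2.02, -1.18, -1.20 and -1.23. HK-2 r1 was lowest, 0.80 log2 units under the next array, and the other 3 arrays lay within 0.051 of each other. The difference between the labels was -0.39 with a 95% interval of -1.77 to 0.99 (adjusted p = 1, limma). The EGR1 window is the only one of the 9 that holds a CArG box (CC, then 6 bases of A or T, then GG), the element that SRF binds. It holds 2 of them, at bases -105 to -96 and -83 to -74, and such a box occurs in 1.29% of all windows. Both are in capitals in this plus-strand stretch at chr5:138465340-138465439 (GRCh38.p14). The E-box CACGTG, present in 7.26% of all windows, was in none of the 9.
EGR1: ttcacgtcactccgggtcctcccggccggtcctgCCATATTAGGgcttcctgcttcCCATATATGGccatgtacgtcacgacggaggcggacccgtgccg

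These windows belong to the start site of the reference gene, no motif found overlapped another, and a match describes letters, not binding. Sites more than 250 bases before the start were not searched, so a gene without a motif in its window may hold it elsewhere.

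MYC, which raises transcription of genes for growth and protein synthesis, was the second gene with large differences. Its probe A_23_P215956 (plus strand, chr8:128753268-128753327, GRCh37) is printed 10 times on each array, so the spread between spots can be set beside the difference between arrays. The mean signal was 900 on HK-2 r1, 7969 on HK-2 r2, 5501 on RPTEC/TERT1 r1 and 851 on RPTEC/TERT1 r2. The levels were 1.19, 3.41, 3.48 and 0.99, with an SD over the 10 spots of 0.10, 0.12, 0.17 and 0.09 in the same order.

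The 2 arrays with high MYC differed by 0.08 log2 units, less than the SD between their spots, and the 2 with low MYC by 0.20. The lowest spot of the high arrays, at 3.24, lay above the highest spot of the low arrays, at 1.33. Spots of 1 array share their RNA, so their SD covers the reading of the array and not the culture. Within replicate 1, HK-2 was 4.90-fold lower than RPTEC/TERT1 (a difference of -2.29 log2 units), and within replicate 2 it was 5.36-fold higher (2.42 log2 units). The mean level was 2.30 ± 1.57 (SD, n = 2) in HK-2 and 2.24 ± 1.77 (SD, n = 2) in RPTEC/TERT1, and the difference of 0.06 had a 95% interval of -3.23 to 3.36 (adjusted p = 1, limma). A larger span was seen in 1891 of the genes tested. A further MYC probe, A_33_P3245163, was not well above background on any array and was left out of the level.

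In the comparison of the labelled cell lines, limma called 0 of the 10 genes and 0% of the 16468 genes tested at an adjusted p under 0.05. At an unadjusted p under 0.05 there were 0 of the 10 and 23 of all genes. The signal of the 2 HK-2 arrays did not overlap with that of the 2 RPTEC/TERT1 arrays in 0 of the 10 genes and in 7.17% of all genes. The median difference was -0.06 in the group and 0.02 over all genes, and the median size of the difference was 0.16 and 0.13. With 2 arrays against 2 and a spread within each label as large as that of FOSL1 and MYC, the intervals above include large differences in both directions.

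The difference between the labels took the opposite sign in replicate 1 and in replicate 2 for all 10 genes, as it did for 85.1% of the genes tested. Within replicate 1, HK-2 was more than 2-fold lower in 2 of the 10 (FOSL1 and MYC), against 16.4% of all genes, and more than 2-fold higher in 0, against 19.6%. Within replicate 2, HK-2 was more than 2-fold higher in 2 of the 10, again FOSL1 and MYC, against 16.0% of all genes. It was more than 2-fold lower in 1, FOS, against 17.8%. Lower in the first and higher in the second by this measure were 2 of the 10, against 12.8% of all genes. The reverse was seen in 0, against 14.6%. FOSB, FOSL2, JUN, JUNB, JUND, ATF3 and EGR1 differed by less than 2-fold between the labels in both replicates. By the shares above, most of all genes also stayed under 2-fold within each replicate. These are differences of 1 array against 1 array and carry no test.

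**Figure D3:**
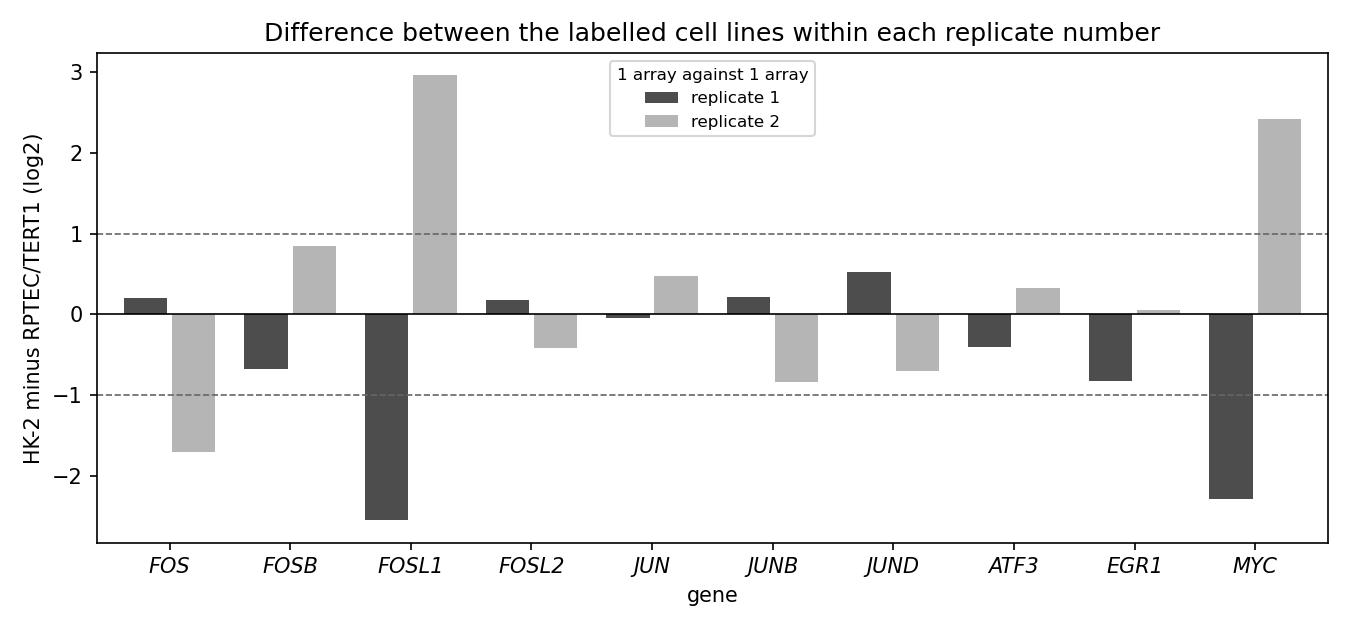
HK-2 minus RPTEC/TERT1 (log2) for each gene within replicate 1 (dark bars) and within replicate 2 (light bars), 1 array against 1 array, with dashed lines at a 2-fold difference. FOSL1 and MYC pass the line downwards in replicate 1 and upwards in replicate 2, and all 10 genes take opposite signs in the replicates.

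Over the 6 pairs of arrays, the 10 genes were closest between HK-2 r1 and RPTEC/TERT1 r2, with a median size of the difference of 0.25 against 0.22 over all genes tested. They were farthest apart between the 2 HK-2 arrays, at 0.85 against 0.67. The 2 RPTEC/TERT1 arrays differed by 0.29 in the group and by 0.79 over all genes, although FOSL1 and MYC differed by 3.38 and 2.50 there. Without FOSL1 and MYC the medians were 0.78 between the HK-2 arrays and 0.25 between the RPTEC/TERT1 arrays. For the same genes they were 0.25 between HK-2 r1 and RPTEC/TERT1 r2 and 0.45 between HK-2 r2 and RPTEC/TERT1 r1. Between the labels they were 0.31 within replicate 1 and 0.59 within replicate 2. Pairs share arrays, so the 6 values are not independent.

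The genes whose levels over the 4 arrays followed FOSL1 most closely, by Euclidean distance of levels centred on each gene's mean, were SHISA2 (distance 0.14), KL (0.15) and FIGNL1 (0.16). SHISA2 keeps growth factor and Wnt receptors from maturing, KL encodes the kidney hormone co-receptor klotho, and FIGNL1 acts in homologous recombination. SHISA2 had levels of -1.74, 0.52, 0.76 and -2.46, and FIGNL1 -3.80, -1.69, -1.08 and -4.66. KL had levels of -4.56, -2.37 and -2.15 and lay at the floor on RPTEC/TERT1 r2. MYC ranked 112 among the 16467 other genes, at a distance of 0.64. With 4 arrays such a likeness is a description only.

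Of 7 lists of genes around these factors, the targets of AP-1 had the largest median span over the arrays. The list of AP-1 targets held 20 genes, of which 16 passed the filter for testing, and 0 were called. Their median span was 1.82 log2 units, against 1.05 over all genes. Within replicate 1, HK-2 was more than 2-fold lower in 9 and higher in 4, and within replicate 2 it was lower in 5 and higher in 8. Taken as a pair, 8 of the 16 were lower and then higher, as FOSL1 was, and 4 were higher and then lower, beside 12.8% and 14.6% of all genes.

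The epidermal growth factor receptor ligand EREG was at the floor on HK-2 r1 and RPTEC/TERT1 r2 and at levels of 2.34 and 2.32 on HK-2 r2 and RPTEC/TERT1 r1. HK-2 minus RPTEC/TERT1 was therefore -7.69 log2 units or further below 0 within replicate 1, and at least 7.71 within replicate 2. AREG, a ligand of the same receptor, had levels of -1.27, 2.42, 2.01 and -1.02. Among those that ran the other way, PLAU, the urokinase gene, had levels of 5.00, 1.58, 1.58 and 4.66; it was named after its values were seen, as were IL6 (2.44, 0.50, 1.36 and 2.16) and CXCL8 (5.88, 4.74, 4.62 and 5.76), inflammatory cytokine genes of the same list. The collagenase and stromelysin genes MMP1, MMP3, MMP10 and MMP13 did not pass the filter, and EREG passed it only through the arrays on which it was high. Whether FOSL1 has a part in the differences of these targets was not tested.

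The list of MYC targets held 21 genes, of which 20 were tested and 0 were called. Their median span was 1.32 log2 units. Within replicate 1, HK-2 was more than 2-fold lower in 9 and higher in 0, and within replicate 2 it was higher in 11 and lower in 0. Lower and then higher, as MYC was, were 9 of the 20, against 12.8% of all genes, and the reverse was seen in 0, against 14.6%. The median difference was -0.92 within replicate 1 and 1.05 within replicate 2, beside 0.12 and -0.08 over all genes.

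CCND2, the growth-promoting cyclin D2, was at the floor on HK-2 r1 and RPTEC/TERT1 r2 and at 1.44 and 2.01 on HK-2 r2 and RPTEC/TERT1 r1. MYBBP1A, a nucleolar protein, had levels of -2.96, -0.21, -0.21 and -2.99. DKC1, the pseudouridine synthase dyskerin of ribosome and telomerase RNA, had levels of 1.25, 3.42, 3.14 and 1.28. All 3, named for the largest spans of the list, were high on the arrays on which MYC was high. CCND2 passed the filter only through those arrays. Whether MYC has a part in the differences of its targets was not tested. NPM1 and LDHA, named after their values were seen, differed little, with within-replicate differences between -0.39 and 0.02.

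**Figure D4:**
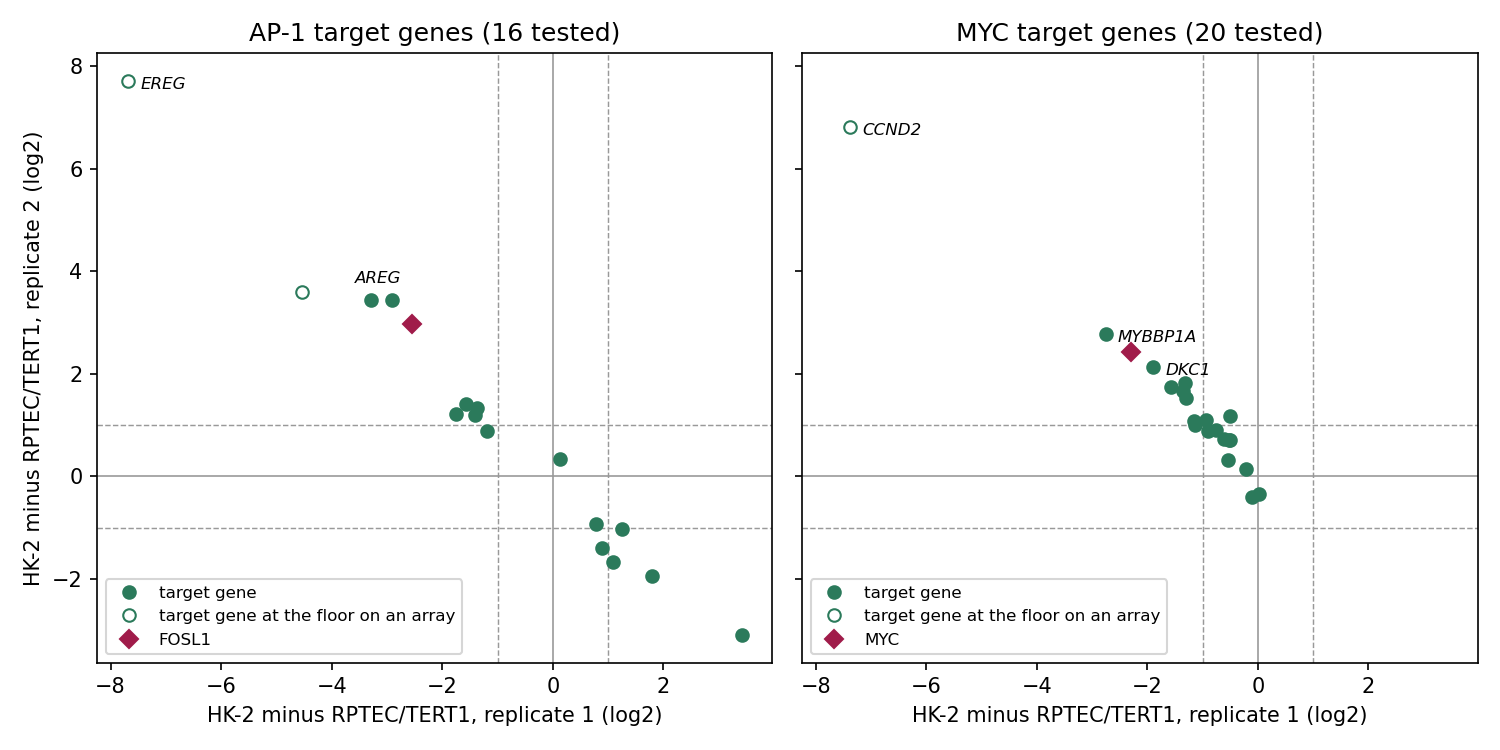
HK-2 minus RPTEC/TERT1 (log2) within replicate 1 (x axis) against the same within replicate 2 (y axis) for the 16 AP-1 targets and the 20 MYC targets tested, with FOSL1 and MYC as diamonds and dashed lines at a 2-fold difference. Each circle is 1 gene, and open circles are genes at the floor on at least 1 array. A difference that includes an array at the floor is a lower limit in size, whatever its sign. The AP-1 targets lie in both the upper left (8) and the lower right (4) corner beyond the lines, and the MYC targets in the upper left (9) only.

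The summed levels of fibroblast and epithelial markers also differed between the arrays on which FOSL1 and MYC were high and the others. Of 4 fibroblast markers, 1, 2, 2 and 0 were well above background on HK-2 r1 and r2 and RPTEC/TERT1 r1 and r2. Their summed level was -3.25, -0.42, -0.63 and -3.28, led by DCN at -0.61 on HK-2 r2 and -0.87 on RPTEC/TERT1 r1, with COL1A2 and PDGFRB not well above background on any array. The summed level of 5 epithelial markers ran the other way, at 6.39, 5.20, 5.14 and 6.60, and CDH1 (E-cadherin) was at the floor on HK-2 r2 and RPTEC/TERT1 r1. Their part in the differences of FOSL1, MYC and the targets was not tested.

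For leukocytes, 3, 3, 4 and 3 of 4 markers were well above background, with a summed level between -0.19 and 0.91, and PTPRC (CD45) lay between -4.25 and -3.32. Endothelial markers numbered 2, 1, 1 and 1 of 3, with VWF not well above background on any array, and distal nephron markers 2, 1, 1 and 2 of 5, with SLC12A3, AQP2 and CALB1 absent by the same measure. The summed level of the endothelial markers lay between -2.54 and -1.43. That of the distal nephron markers was -0.15, -2.04, -2.04 and 0.23, with SLC12A1, the transporter of the thick ascending limb, at -0.51 on HK-2 r1 and -0.10 on RPTEC/TERT1 r2 and at the floor on the arrays on which FOSL1 and MYC were high. The part of these markers was not tested either.

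The other immediate-early genes, 14 of 21 tested and 0 called, had a median span of 1.501. EGR2, a relative of EGR1, was at the floor on HK-2 r1 and RPTEC/TERT1 r2 and at -0.52 and -0.82 on HK-2 r2 and RPTEC/TERT1 r1, while the difference of EGR1 itself was -0.83 within replicate 1 and 0.05 within replicate 2. NR4A1, an orphan nuclear receptor, was well above background only on HK-2 r2 and RPTEC/TERT1 r1, at -3.21 and -4.43. Both EGR2 and NR4A1 passed the filter only through the arrays on which they were high. PHLDA1, a growth factor-induced pleckstrin domain protein, ran the other way, with levels of 2.49, -0.96, -1.49 and 2.26. By the 2-fold measure 2 of the 14 were lower and then higher in HK-2 and 5 were higher and then lower, beside 12.8% and 14.6% of all genes.

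Of the other leucine zipper partners of AP-1, 19 of 21 were tested and 0 called, with a median span of 0.89. ATF5, a factor of the stress response, had levels of 0.83, -1.80, -1.97 and 1.12. It ran opposite to FOSL1. CEBPD, an acute-phase factor, had levels of 3.32, 3.81, 1.97 and 4.96 and was lowest on RPTEC/TERT1 r1. Of the 19 genes, 1 was lower and then higher in HK-2 and 4 were higher and then lower, beside 12.8% and 14.6% of all genes.

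The MYC network, which holds the partner MAX and the factors that compete for it, had 10 of 11 genes tested, 0 called and a median span of 1.03. MXD4, a competitor of MYC for MAX, had levels of 0.42, -1.26, -1.46 and 0.39 and was low on the arrays on which MYC was high. MXI1, another competitor, had levels of -1.99, -0.76, -1.64 and -0.43 and was higher in replicate 2 of both labels. MYCL, a relative of MYC, had levels of -4.90, -3.36, -3.65 and -4.05. Of the 10 genes, 0 were lower and then higher and 1 was higher and then lower, beside 12.8% and 14.6% of all genes.

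The kinases that act upstream had the smallest median span of the 7 lists. MAP kinases and SRF factors had 20 of 21 genes tested, 0 called and a median span of 0.73. In this list 1 gene was lower and then higher and 2 the reverse, beside 12.8% and 14.6% of all genes. MAPK3 (ERK1) had levels of -1.73, -3.08, -2.92 and -1.72, MAP3K1, which acts above JNK, 2.29, 1.11, 0.93 and 2.57, and RPS6KA5 (MSK1), a kinase below ERK and p38, -2.93, -1.83, -0.97 and -3.04. Feedback inhibitors of MAP kinases had 15 of 16 genes tested, 0 called and a median span of 1.05. Here too 1 was lower and then higher and 2 the reverse, beside the same shares of all genes. Among these, SPRED2 had levels of -1.58, -1.84, -0.77 and -2.62 and SPRY4, like SPRED2 an inhibitor of the Ras to ERK route, -2.20, -3.73, -3.73 and -2.49. DUSP9, a MAP kinase phosphatase, had -3.75, -3.17, -2.99 and -4.78, the last not well above background.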

How the data were processed

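The authors deposited, for each of the 4 arrays, linear spot intensities read by Agilent Feature Extraction 9.5.3.1 (1 channel, Cy3), background-subtracted and detrended with no scaling across arrays. A table of log2 values was deposited as well, and its making is not stated in the paper, labels or headers. Its medians were 8.33 and 7.14 in HK-2 and 6.75 and 6.72 in RPTEC/TERT1 (replicates 1 and 2). It served as an alternative. Labels and methods name different RNA kits.

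Control and outlier spots were left out, signals divided by the array's 75th percentile, floored and taken to log2. A gene is the mean of its probes well above background on at least 1 array. HK-2 and RPTEC/TERT1 were compared with limma 3.58.1 (lmFit and eBayes, R 4.3.3), Benjamini-Hochberg at 0.05 over 16468 genes. The number of arrays limits the precision. The step was tested on simulated data. Figures were drawn with matplotlib 3.10.9.

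Named genes are the 10 members, the 3 genes of each pathway list with the largest span, and the 3 nearest to the member with the largest span; exceptions are stated, and 2 genes that the rule names are not reported here. Members and lists were chosen with earlier results of these data known. Replicate numbers coincide with the scan date and each array has its own slide. The deviations of same-numbered arrays correlated at -0.810. Because arrays resemble each other across the labels, this value cannot show whether same-numbered cultures were handled together. Alternatives were normexp, the deposited log2 values, quantile and median scaling, other filters and probe rules, the replicate block and leaving out each array. Probe positions are GRCh37, and exons or UTRs were not looked up.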

Additional observations from a re-analysis of the deposited data

How the results depend on the processing

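Under the 15 alternatives 0 genes and 0 of the 10 factors were called between the labelled cell lines, with 3 to 240 genes at an unadjusted p under 0.05. No difference of a factor passed the threshold in any setting, so the signs that follow belong to differences that were not called. With normexp, which moved the median of all genes by 0.36 (main value 0.02), the median difference of the 10 genes was 0.41, FOS stood at 0.65, JUN at -0.24, JUNB at 0.65, JUND at 0.052, ATF3 at 0.47, EGR1 at 0.35 and MYC at -0.25. The median size of the difference between arrays became 0.98 (main value 0.49), and FOSL1 within replicate 1 became -0.55. Relative to the shift of the median, JUN, JUND, EGR1 and MYC of these were below 0. With normexp after removing the spots of bright local background, chosen after seeing the data, FOSL1 within replicate 1 was -1.91, and FOSB stood at -0.0097. With the deposited log2 values, whose median moved by 0.20, FOS was 0.26, JUNB 0.33, ATF3 0.26, EGR1 0.10 and MYC -0.036. Leaving out each array gave differences of -1.27 (without RPTEC/TERT1 replicate 1) to -0.22 (without RPTEC/TERT1 replicate 2) for FOS, -0.25 to 0.18 for ATF3, -0.81 to 0.035 for EGR1, -0.56 to 0.72 for FOSB, -1.48 to 1.90 for FOSL1, -0.33 to 0.089 for FOSL2, -0.14 to 0.58 for JUN, -0.64 to 0.030 for JUNB, -0.57 to 0.40 for JUND and -1.18 to 1.31 for MYC, with the lone array of a label assumed to vary like the others. The cause of these changes was not tested. MYC within replicate 1 ranged from -2.92 to -2.25 and within replicate 2 from 2.32 to 2.53, and FOSL1 within replicate 2 from 1.97 to 2.96, under the settings that keep all 4 arrays. The replicate block changed no call and gave 5 genes at an unadjusted p under 0.05. The crossed pairing, added after seeing the data, gave 0 called and 183 at an unadjusted p under 0.05, 1 of the 10 factors among them. With 2 arrays a label, only differences well above the spread within a label can be detected, and values of FOS and FOSB lie near background.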
